A study of Homo sapiens with 12 samples.

Results

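Onametostat, an inhibitor of the protein arginine methyltransferase PRMT5, was compared with vehicle in T98-G cells at normal oxygen. The comparison takes the 3 libraries whose columns are labelled normoxia with onametostat and the 3 labelled normoxia with DMSO, that is 6 of the 12 samples of the series, and all 14698 genes of the count table. T98-G is an established human glioblastoma line. The cells received 1 µM onametostat or 0.1% DMSO (by volume) for 48 h at 20% oxygen, and polyadenylated RNA was sequenced from 3 independent experiments per condition, so that library 1, 2 or 3 below is that of experiment 1, 2 or 3. The other 6 samples were treated likewise at 1% oxygen and are used here only beside the normoxic values. The question of the comparison is which transcripts differ in cells exposed to the PRMT5 inhibitor.

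PRMT5 is the main enzyme that places symmetric dimethyl marks on arginine residues. With its partner WDR77 it methylates histone tails and, among many other proteins, the Sm proteins that form the ring around spliceosomal small nuclear RNAs. Methylated Sm proteins are handed to the SMN complex, which assembles them into the small nuclear ribonucleoproteins (snRNPs) that remove introns. Onametostat occupies the pocket of the methyl donor, S-adenosylmethionine, and so blocks the activity of the enzyme, not its synthesis.

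The libraries held 18154073, 42559624 and 21680512 with onametostat and 22595344, 41546611 and 22440031 with DMSO counted reads. All levels are given as CPM, read counts scaled to library size with TMM factors, so they are shares of the counted RNA, and fewer cells and less RNA per cell cannot be told apart in such bulk samples. The first principal component held 85.8% of the variance of log2 CPM and set the 3 onametostat libraries apart from the 3 DMSO libraries. Levels after ± are SDs over 3 libraries. Of 9 genes looked up as glioblastoma markers, NES, CHI3L1, SOX2, GFAP and S100B were not among the genes of the table, and 4 were. VIM had 1459 (onametostat) and 1388 (DMSO) CPM and CD44 had 1887 (onametostat) and 1724 (DMSO) CPM. OLIG2 was low, at 1.51 (onametostat) and 0.929 (DMSO) CPM, and MGMT is described below. Of 9 markers of leukocytes, endothelium, epithelium, neurons and oligodendrocytes, only SYP was among the genes of the table, at 1.23 (onametostat) and 1.52 (DMSO) CPM. Mitochondrially encoded mRNAs took 2.37 ± 0.469% with onametostat and 2.25 ± 0.499% with DMSO as a share of counts (exact permutation test over the 6 libraries, two-sided, p = 0.70, where 0.10 is the smallest p that 3 against 3 allows). All directions rest on the column labels, and no gene of the table tests the labels independently, since the inhibitor acts on the protein. Whether the onametostat and DMSO labels could be exchanged was not tested, and an exchange would turn every direction below round. For many of the genes described below that the paper names, it states the reverse direction at both oxygen levels. It gives U2AF1, PTBP2, several pre-mRNA processing factors, CXCL8, AMH, IRAK2, PLEKHS1 and the histone cluster as reduced by onametostat. As raised it gives EBF4, H6PD, SLC25A10, AKR1A1, PTK2B, SEMA5A, SEMA6A and CAT. Not every gene differs in this way. FZD2, which it gives as reduced in hypoxia, was lower here too, by small steps. In hypoxia, libraries 1 and 2 with onametostat held 54.9 and 53.5 CPM of FZD2, against 71.9, 68.6 and 68.0 CPM with DMSO. TERT, given as reduced in hypoxia like FZD2, went the other way, with 2.04 and 2.41 CPM against 0.968, 0.898 and 0.949 CPM. CDKN1A, given as raised in hypoxia, was lower here, with 7.76 and 9.52 CPM against 17.6, 18.2 and 19.3 CPM.

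At an adjusted p under 0.05 (edgeR's quasi-likelihood test, Benjamini-Hochberg adjustment over all genes), 4329 genes (29.5%) were higher with onametostat and 4553 (31.0%) lower. These 2 percentages are the background over all genes for the lists described below, but the shares called vary with the level. Lists made up mostly of well expressed genes (average log2 CPM of at least 5) are nearer to the background of such genes, 43.8% higher and 29.3% lower. DEGs, with an absolute log2 fold change also above 1, made up 258 higher genes (1.76%) and 645 lower genes (4.39%). In what follows a gene called higher or lower passed this test, and a number alone in parentheses after a gene is its log2 fold change. Most differences were small. The median called gene changed 1.29-fold, 2264 higher and 1572 lower genes changed by less than 1.25-fold, and 1285 higher and 1251 lower ones by 1.25-fold to less than 1.5-fold. The 3 experiments of each treatment lay close together, with a biological coefficient of variation of 0.036 over all genes.

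**Figure D1:**
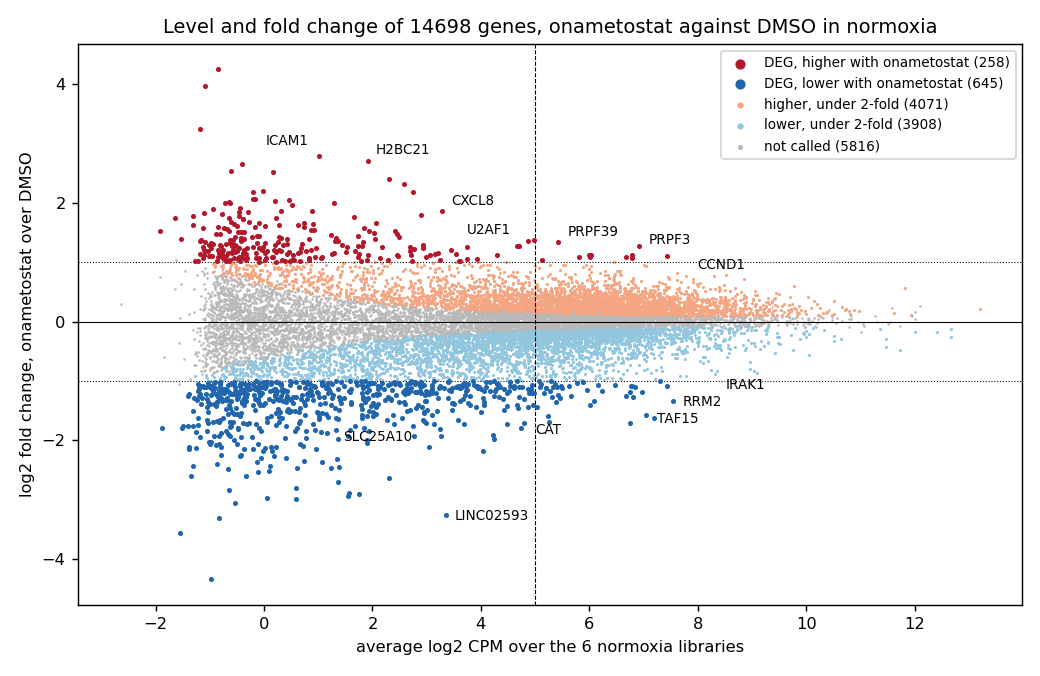
Log2 fold change (onametostat over DMSO, vertical axis) against the average log2 CPM over the 6 normoxia libraries (horizontal axis), 1 point per gene. Dotted lines mark log2 fold changes of -1 and 1 and the dashed line an average log2 CPM of 5; the 258 higher and 645 lower DEGs lie mostly to its left, and 11 higher and 43 lower DEGs lie to its right.

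Among the 6072 well expressed genes, whose log2 CPM averaged 5 or more, 2662 (43.8%) were higher with onametostat and 1777 (29.3%) lower. Only 11 of the higher and 43 of the lower ones were DEGs, which leaves 2651 higher and 1734 lower well expressed genes that changed by less than 2-fold. Of these, 115 higher and 212 lower genes changed by 1.5-fold to less than 2-fold. The balance of directions varied with the level. Higher genes were 12.7% and lower genes 21.03% of those with an average log2 CPM from -1 to 1, against 51.6% and 23.2% of those from 7 to 9. The median log2 fold change over all genes was -0.01, and with library sizes alone in place of TMM factors it was -0.04, with 3854 genes higher and 4993 lower.

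**Figure D2:**
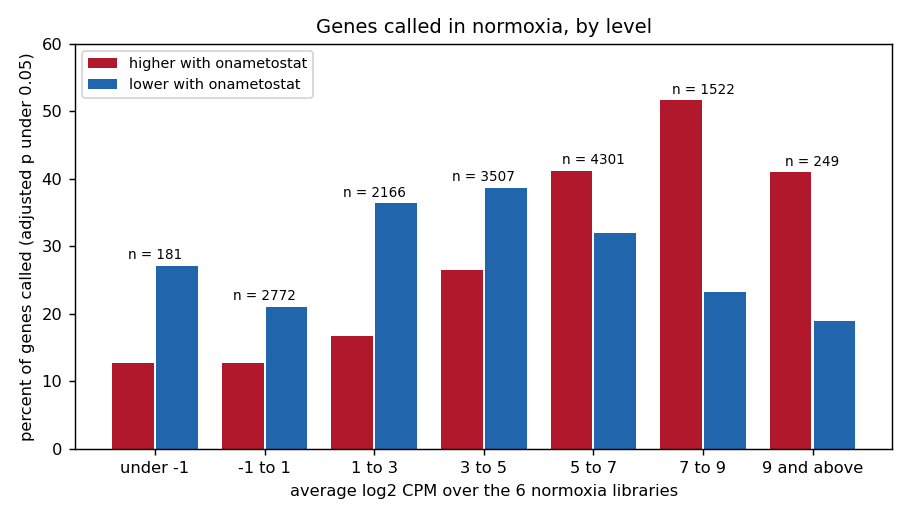
Percent of genes called higher or lower with onametostat (vertical axis) in 7 bins of the average log2 CPM over the 6 normoxia libraries (horizontal axis), with the number of genes above each pair of bars. Below an average log2 CPM of 5 the lower genes outnumber the higher ones, and from 5 upwards the higher ones outnumber the lower.

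The transcripts of PRMT5 and its cofactors changed little. PRMT5 had 85.3, 90.2 and 88.3 CPM with onametostat, against 65.1, 65.1 and 66.2 CPM with DMSO, and every onametostat library was above every DMSO library (log2 fold change 0.43, standard error 0.038, adjusted p = 2.59e-09). WDR77, which holds PRMT5 in its active octamer, had 56.7, 53.4 and 55.9 CPM with onametostat, against 64.1, 65.9 and 65.0 CPM with DMSO (log2 fold change -0.24, standard error 0.042, adjusted p = 3.66e-05). MTAP, which clears methylthioadenosine, a metabolite that inhibits PRMT5 and whose gene is deleted in many glioblastomas, was expressed here, at 33.2, 34.0 and 33.6 CPM with onametostat, against 47.7, 46.6 and 46.8 CPM with DMSO (log2 fold change -0.48, standard error 0.047, adjusted p = 1.04e-08). These 3 transcripts therefore moved by less than 1.5-fold in either direction. The position of PRMT5 (ENSG00000100462, chr14:22920525-22929408) and of other genes below is that of GENCODE release 44 (GRCh38). Of the adaptors that bring substrates to PRMT5, COPRS (0.34) and RIOK1 (0.26) were higher, whereas CLNS1A, which delivers Sm proteins, did not pass the test at a log2 fold change of 0.01 (adjusted p = 0.768). MAT2A, which makes S-adenosylmethionine, was lower (-0.23, adjusted p = 1.12e-04). Among 8 arginine methyltransferases, 2 were higher and 3 lower, from -0.40 (PRMT9) to 0.43 (PRMT5). PRMT1, the main asymmetric dimethyltransferase, had 226 ± 8.52 CPM with onametostat and 237 ± 4.20 CPM with DMSO and was not called (adjusted p = 0.11; 0.0366 without onametostat library 2). The calls of PRMT6 (-0.15) and PRMT7 (0.11) were lost under several alternatives, PRMT6 without DMSO library 2 (adjusted p = 0.0918) and PRMT7 without onametostat library 3 (adjusted p = 0.133) or without DMSO library 1, 2 or 3 (adjusted p = 0.136, 0.0589 and 0.089).

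Genes of the splicing machinery were mostly higher with onametostat. The spliceosome is built from snRNPs that recognise the splice sites, and from helicases that rearrange them. Of 74 core spliceosome genes, 60 were higher (81.1%) and 7 lower (4 without DMSO library 3), with a median log2 fold change of 0.35, against -0.01 over all genes. PRPF3 (ENSG00000117360, chr1:150321479-150353233), a protein of the U4/U6 snRNP, had 168, 168 and 179 CPM with onametostat, against 69.8, 71.7 and 70.1 CPM with DMSO, with no overlap (log2 fold change 1.28, standard error 0.037, adjusted p = 1.05e-16). PRPF39, which accompanies the U1 snRNP, had 60.5, 58.5 and 65.9 CPM with onametostat, against 23.5, 25.001 and 24.0 CPM with DMSO (log2 fold change 1.34, standard error 0.054, adjusted p = 1.12e-14). U2AF1, the subunit that reads the 3′ splice site, had 41.2, 42.4 and 42.3 CPM with onametostat, against 15.9, 17.2 and 16.1 CPM with DMSO (log2 fold change 1.35, standard error 0.056, adjusted p = 1.80e-14). PRPF38B was the other member above 2-fold (1.12), and most members changed less. SF3B1, which holds the branch point in the U2 snRNP, averaged 456 ± 7.41 CPM with onametostat and 321 ± 10.2 CPM with DMSO (log2 fold change 0.51, standard error 0.034, adjusted p = 3.70e-11), and PRPF8, the core of the U5 snRNP, 958 ± 24.5 CPM with onametostat and 718 ± 6.10 CPM with DMSO (log2 fold change 0.42, standard error 0.035, adjusted p = 1.17e-09). The helicases DDX46 (0.79) and DDX23 (0.75) and the recycling factor SART3 (0.68) rose by similar steps. U2AF1 has a near-identical copy in GRCh38, so its count may depend on how reads of the 2 copies were assigned.

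The Sm and LSm proteins themselves, whose tails are classical PRMT5 substrates or which form the related LSm rings, had 12 of 17 members higher and 2 lower (median 0.19). SNRPB, which encodes the SmB and SmB′ proteins, averaged 530.5 ± 6.62 CPM with onametostat and 394 ± 3.07 CPM with DMSO (log2 fold change 0.43, standard error 0.033, adjusted p = 2.36e-10). SNRPE (0.42) and SNRPD2 (0.26) were also higher, whereas SNRPD3 (-0.17) and LSM7 (-0.37) were lower. In the SMN complex and its helpers, 9 of 17 genes were higher (52.9%) and 3 lower (17.6%), and 10 of the 17 were well expressed. COIL (0.48), the scaffold of Cajal bodies, was among the higher ones. SMN1 (0.45) and SMN2 (0.47) were higher too, but they are near-identical copies whose reads cannot be separated with certainty.

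Splicing regulators were more mixed. Of 52 SR proteins and other regulators, 30 were higher and 8 lower (13 lower with library sizes alone). Of the 52, 49 were well expressed, and the shares were 57.7% and 15.4%, against 43.8% and 29.3% of all well expressed genes. RBM39 (0.76) and SRRM1 (0.60), both partners of SR proteins, were higher, and the SR proteins SRSF1 (0.20) and SRSF2 (0.19) were higher by small steps. TAF15 (ENSG00000270647, chr17:35809482-35864615), an RNA-binding protein with roles in transcription, went the other way. It had 66.7, 63.2 and 69.1 CPM with onametostat, against 198, 200.3 and 193 CPM with DMSO (log2 fold change -1.58, standard error 0.038, adjusted p = 5.12e-18). The related EWSR1 was also lower (-0.44). PTBP2, the neuronal polypyrimidine tract protein, had 37.5, 34.3 and 39.2 CPM with onametostat, against 15.4, 14.7 and 15.5 CPM with DMSO (log2 fold change 1.28, standard error 0.063, adjusted p = 2.85e-13), and its paralog PTBP1 was slightly lower (-0.15). Only 7 of 25 hnRNP genes were higher and 5 lower, a share close to that of all genes (with library sizes alone, 4 higher and 9 lower; without onametostat library 3 or DMSO library 2, 3 lower). Among 16 kinases that phosphorylate splicing factors or are related to them, 10 were higher and 2 lower. The higher ones were led by PRPF4B (1.10) and included CLK1 (0.42). HIPK2 was higher (0.41). With all 12 libraries in the fit its log2 fold change was 0.41 and not called (adjusted p = 0.493), and without the shallow library 3 of onametostat in hypoxia (403279 counts) it was called.

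**Figure D3:**
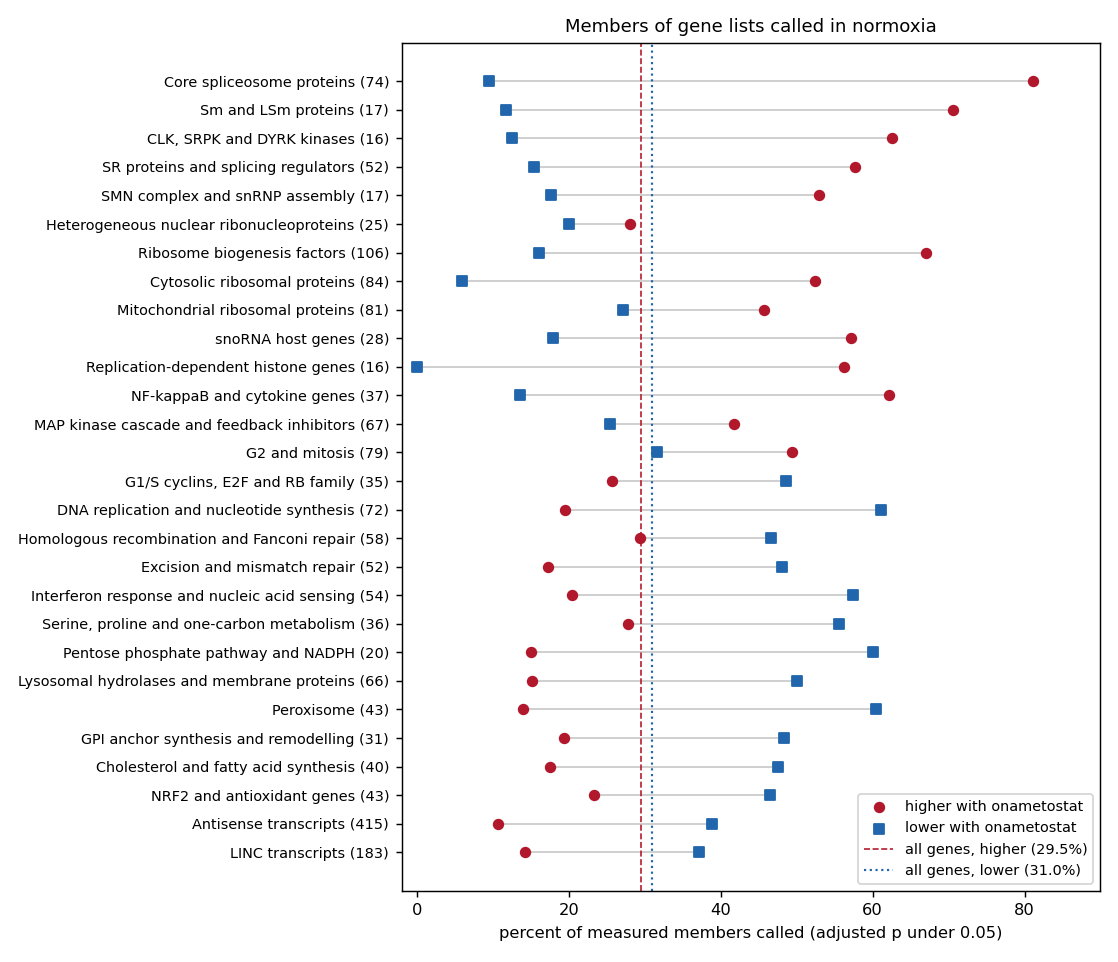
Percent of the measured members of each list (number in brackets) that were called higher (circles) or lower (squares) with onametostat in normoxia, with the shares over all genes as vertical lines. Core spliceosome genes lie at 81.1% higher and 9.46% lower, and DNA replication genes at 19.4% higher and 61.1% lower.

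DNA replication genes were mostly lower with onametostat. The list holds the helicase, polymerases and licensing factors of the replication fork and the enzymes that supply deoxynucleotides. Of 72 members, 44 were lower (61.1%) and 14 higher, with a median of -0.20. RRM2 (ENSG00000171848, chr2:10120698-10211725), the regulated subunit of ribonucleotide reductase, had 109, 104 and 107 CPM with onametostat, against 276, 265 and 261 CPM with DMSO (log2 fold change -1.33, standard error 0.035, adjusted p = 2.23e-17). GINS4, a subunit of the replicative helicase, had 18.7, 19.2 and 18.4 CPM with onametostat, against 56.8, 57.0 and 56.4 CPM with DMSO (log2 fold change -1.59, standard error 0.05, adjusted p = 4.06e-16). TIMELESS, which protects the fork, had 37.5, 33.2 and 36.5 CPM with onametostat, against 92.9, 95.6 and 92.6 CPM with DMSO (log2 fold change -1.41, standard error 0.046, adjusted p = 6.29e-16). These 3 genes were named by rules that ask for the smallest p, so the wide separation of their groups is no further result. DONSON, a helicase loading factor, was the other DEG of the list (-1.12). Smaller decreases were measured for POLA1 (-0.94) and POLA2 (-0.87) of the priming polymerase, for the thymidylate synthase gene TYMS (-0.67), for PCNA (-0.45) and for MCM4 (-0.53) and MCM6 (-0.48). MCM2 was not called at -0.04 (adjusted p = 0.304), and POLE, the leading strand polymerase, was higher (0.40).

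E2F factors drive many of these genes in late G1. The promoters of 3 lower members are shown because they hold a match to an E2F site (TTTCGCGC or TTTGGCGC, on either strand), in capitals together with CCAAT boxes (CCAAT, on either strand). The E2F matches begin at base -137 in POLA1 and -53 in POLA2, counted from the start, and in MCM6 a match to each of the 2 letter strings overlaps at 2 places. The window runs from 250 bases before to 50 after the RefSeq start (GRCh38.p14), at chrX:24693668-24693967 (plus strand) for POLA1, chr11:65261712-65262011 (plus strand) for POLA2 and chr2:135876394-135876693 (minus strand) for MCM6.
POLA1: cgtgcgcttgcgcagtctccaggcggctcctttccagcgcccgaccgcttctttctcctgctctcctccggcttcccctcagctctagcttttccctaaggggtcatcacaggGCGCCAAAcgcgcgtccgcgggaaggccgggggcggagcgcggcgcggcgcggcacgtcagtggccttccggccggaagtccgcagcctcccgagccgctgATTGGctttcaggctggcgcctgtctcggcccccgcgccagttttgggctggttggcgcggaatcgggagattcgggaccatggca
POLA2: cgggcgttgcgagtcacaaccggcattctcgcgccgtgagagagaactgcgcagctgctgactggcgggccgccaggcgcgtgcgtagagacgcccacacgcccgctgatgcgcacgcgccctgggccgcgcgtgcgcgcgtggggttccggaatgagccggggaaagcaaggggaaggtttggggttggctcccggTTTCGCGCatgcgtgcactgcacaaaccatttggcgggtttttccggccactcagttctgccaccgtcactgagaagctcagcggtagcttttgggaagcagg
MCM6: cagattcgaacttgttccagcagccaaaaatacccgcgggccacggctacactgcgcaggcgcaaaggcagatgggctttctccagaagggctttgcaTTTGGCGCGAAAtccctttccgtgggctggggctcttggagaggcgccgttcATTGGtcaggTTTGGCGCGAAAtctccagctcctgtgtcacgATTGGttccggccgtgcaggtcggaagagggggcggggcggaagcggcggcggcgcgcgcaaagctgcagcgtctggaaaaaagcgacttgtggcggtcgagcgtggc
Of the 36 lower replication genes with a promoter in the RefSeq table, 8 (22.2%) held such a match, as did 5 of the 25 that were not lower (20.0%), against 2.10% of 10653 promoters of genes in the table.

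Among 35 genes that control entry into S phase, 17 were lower and 9 higher. CCND1, cyclin D1, was higher, with 281, 275 and 280.2 CPM with onametostat, against 162, 164 and 168 CPM with DMSO (log2 fold change 0.76, standard error 0.032, adjusted p = 2.64e-14). CCNE2, a cyclin of the next step, was lower (-0.99), as were the transcription factor genes E2F1 (-0.44), E2F2 (-0.78) and MYBL2 (-0.56). CDKN1A, which encodes the cyclin-dependent kinase inhibitor p21, was lower as well, with 9.56, 10.1 and 11.0 CPM with onametostat, against 18.4, 16.7 and 18.2 CPM with DMSO (log2 fold change -0.79, standard error 0.077, adjusted p = 1.07e-08).

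Genes of G2 and mitosis did not follow those of replication. Of 79 members, 39 were higher (49.4%) and 25 lower (31.6%). Of the 79, 70 were well expressed, and these shares lay near those of all well expressed genes (43.8% and 29.3%). A single member, the centromere gene CENPI, changed by more than 2-fold (-1.25, adjusted p = 3.12e-15). AURKA, the spindle pole kinase, averaged 356 ± 5.19 CPM with onametostat and 243 ± 3.75 CPM with DMSO (log2 fold change 0.55, standard error 0.032, adjusted p = 3.46e-12). CCNB1 (0.39), PLK1 (0.37), CENPF (0.33) and the checkpoint kinase gene TTK (0.61) were higher, as was CCNA2 by a smaller step (0.14). TOP2A (-0.46) and KIF20A (-0.53) were lower, and the proliferation marker MKI67 was not called at 0.05 (adjusted p = 0.269, and 0.0391 without onametostat library 2). NCL (0.19), which encodes nucleolin, and NUMA1 (0.15), a spindle pole protein gene, were higher by less than 1.25-fold.

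**Figure D4:**
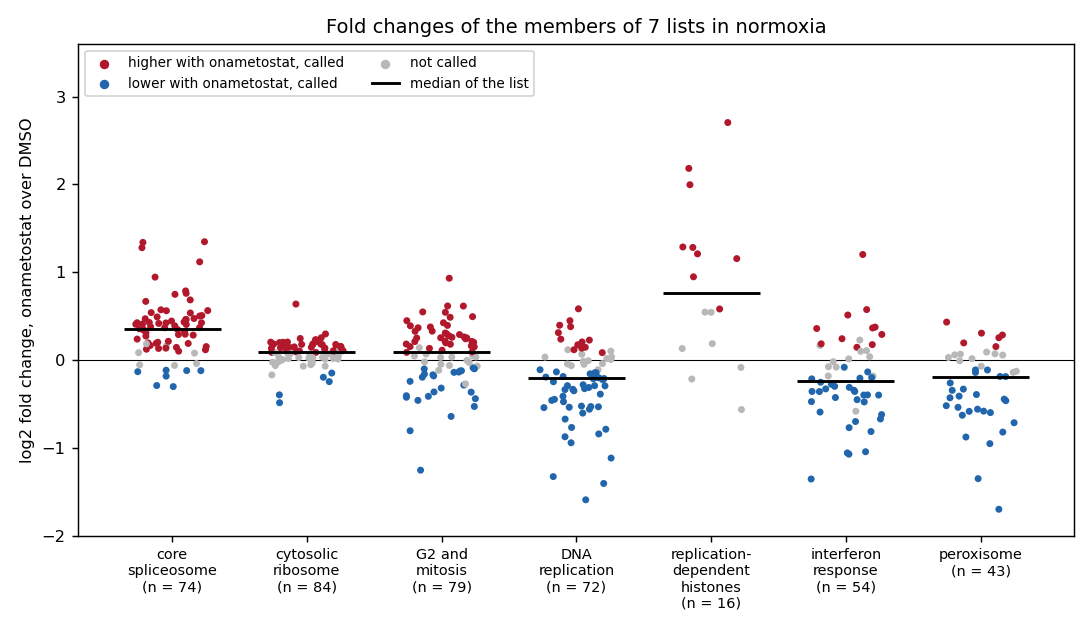
Log2 fold change (onametostat over DMSO, vertical axis) of each measured member of 7 lists, 1 point per gene, coloured by its call, with a black line at the median of the list. The core spliceosome has its median at 0.35, DNA replication genes at -0.20, and replication-dependent histone genes reach 2.70.

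Histone genes stood out among the higher DEGs. Replication-dependent histone mRNAs normally end in a stem-loop and carry no poly(A) tail, so libraries of polyadenylated RNA hold only their polyadenylated forms, and levels were low. Of 16 such genes in the table, 9 were higher, none was lower (1 with limma voom), and 7 were DEGs (median 0.76). Their summed share of counts was 0.00752 ± 1.63e-04% with onametostat and 0.00326 ± 4.29e-05% with DMSO (exact permutation p = 0.10, the smallest possible). H2BC21 had 6.28, 6.65 and 6.62 CPM with onametostat, against 0.744, 1.17 and 0.965 CPM with DMSO (log2 fold change 2.70, standard error 0.158, adjusted p = 3.75e-12). H2BC12 had 11.2, 11.1 and 10.5 CPM with onametostat, against 2.67, 2.53 and 1.93 CPM with DMSO (log2 fold change 2.18, standard error 0.116, adjusted p = 9.01e-13). H2BC4 had 4.06, 3.50 and 3.96 CPM with onametostat, against 0.831, 1.004 and 0.965 CPM with DMSO (log2 fold change 2.00, standard error 0.178, adjusted p = 2.93e-09). These 3 genes were named by a rule that asks for no overlap between the groups, so their separation is no further result. H2BC5 (1.28) and the linker histone gene H1-2 (1.21) were also higher, whereas H2AC11 had a log2 fold change of -0.56 that was not called (adjusted p = 0.295, and 0.0193 with limma voom). The coding parts of H2B genes are much alike, so that reads may be shared among them. Of 10 replacement histone genes, which are expressed throughout the cycle, 4 were lower and 2 higher (1 higher with library sizes alone, with all 12 libraries or without DMSO library 2). H2AX (-0.98) was among the lower ones.

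The promoters of 4 of the higher H2B genes are shown because H2B promoters often hold an octamer (ATTTGCAT), CCAAT boxes and a TATA box (TATAAA). Matches to these letter strings on either strand are in capitals, wherever they lie in the window. Matches to TTTCGCGC are in capitals too, of which the only one, in H2BC12, lies directly beside a CCAAT box. H2BC12 also holds 2 overlapping TATAAA matches on opposite strands. The windows are those of RefSeq (GRCh38.p14) as above, at chr1:149886633-149886932 (minus strand) for H2BC21, chr6:27146809-27147108 (minus strand) for H2BC12, chr6:26123877-26124176 (minus strand) for H2BC4 and chr6:26157871-26158170 (plus strand) for H2BC5.
H2BC21: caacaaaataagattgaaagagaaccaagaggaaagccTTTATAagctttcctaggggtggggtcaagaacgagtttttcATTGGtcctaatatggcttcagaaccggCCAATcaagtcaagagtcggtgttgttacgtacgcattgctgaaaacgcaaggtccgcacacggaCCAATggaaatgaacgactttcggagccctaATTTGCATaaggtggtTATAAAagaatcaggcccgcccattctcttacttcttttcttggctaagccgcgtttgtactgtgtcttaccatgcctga
H2BC12: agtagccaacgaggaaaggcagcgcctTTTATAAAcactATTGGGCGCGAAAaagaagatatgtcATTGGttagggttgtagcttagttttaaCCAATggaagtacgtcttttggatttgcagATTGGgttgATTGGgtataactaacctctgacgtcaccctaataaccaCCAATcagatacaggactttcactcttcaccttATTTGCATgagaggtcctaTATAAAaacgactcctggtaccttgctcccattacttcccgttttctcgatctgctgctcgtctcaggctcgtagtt
H2BC4: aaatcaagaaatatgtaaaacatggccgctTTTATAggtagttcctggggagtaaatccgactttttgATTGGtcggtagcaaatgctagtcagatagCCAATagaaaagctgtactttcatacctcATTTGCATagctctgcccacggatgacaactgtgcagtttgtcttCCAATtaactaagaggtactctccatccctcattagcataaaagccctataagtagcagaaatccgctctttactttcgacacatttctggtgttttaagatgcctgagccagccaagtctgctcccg
H2BC5: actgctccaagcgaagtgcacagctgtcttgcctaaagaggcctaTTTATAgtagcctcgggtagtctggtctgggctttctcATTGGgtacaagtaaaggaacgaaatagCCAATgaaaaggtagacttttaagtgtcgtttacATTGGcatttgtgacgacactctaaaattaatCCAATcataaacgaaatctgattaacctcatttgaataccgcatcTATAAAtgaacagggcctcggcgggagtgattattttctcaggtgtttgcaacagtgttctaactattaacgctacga
The octamer was found in 6 of 8 H2B promoters (75.0%) and in 1.28% of all promoters, TATAAA in 75.0% and 5.48%, and CCAAT in all 8 and 36.8%. These counts take a match at any place in the window and on either strand. A TATAAA match began at -30 in H2BC21, -27 in H2BC12 and -28 in H2BC5. The only match of H2BC4, at -220 and on the opposite strand, is not at the place of a TATA box. The octamer begins at base -46 of H2BC21 and -46 of H2BC12 and farther from the start, at -123, in H2BC4. H2BC5, which was higher too, held no octamer match in its window.

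DNA repair genes were more often lower than higher. In homologous recombination and the Fanconi pathway, 27 of 58 members were lower and 17 higher (11 higher without DMSO library 1 and 11 with library sizes alone). FANCI averaged 100.4 ± 0.894 CPM with onametostat and 197 ± 10.6 CPM with DMSO (log2 fold change -0.97, standard error 0.038, adjusted p = 1.04e-14), FANCL was a DEG (-1.10), and BRCA1 (-0.22) and ATM (-0.72) were lower. The breast cancer gene BRCA2 (0.61) and the adaptor MDC1 (0.71) were higher. In excision and mismatch repair, 25 of 52 were lower and 9 higher. The glycosylase genes NEIL3 (-0.83), OGG1 (-1.0002) and UNG (-0.51) were among the lower ones. MGMT, which removes the lesions that temozolomide leaves on guanine, had 7.78, 9.44 and 8.77 CPM with onametostat, against 13.0, 13.6 and 14.1 CPM with DMSO with no overlap (log2 fold change -0.62, standard error 0.085, adjusted p = 1.51e-06).

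Genes of ribosomes changed in small steps. Of 84 cytosolic ribosomal protein genes, 44 were higher and 5 lower (8 without onametostat library 2), and the median log2 fold change was 0.09. As shares these were 52.4% and 5.95%, against 43.8% and 29.3% of all well expressed genes, and 79 of the 84 were well expressed. Together they took 4.23 ± 0.102% with onametostat and 4.12 ± 0.00694% with DMSO as a share of counts (exact permutation p = 0.10). RPL5, which binds 5S ribosomal RNA, averaged 1293 ± 23.8 CPM with onametostat and 1052 ± 12.8 CPM with DMSO (log2 fold change 0.30, standard error 0.035, adjusted p = 2.35e-07), and RPS27 was lower (-0.40). Ribosome biogenesis factors had 71 of 106 members higher (67.0%) and 17 lower (median 0.20). TAF1D, a factor of RNA polymerase I, was higher (0.95), as was UTP14A (0.86), and RRP7A (-1.08), BOP1 (-0.86) and NOP56 (-0.66) were lower. Of 28 snoRNA host genes, whose introns hold the guide RNAs of ribosomal RNA modification, 16 were higher and 5 lower (3 without onametostat library 2 or DMSO library 3), among them SNHG16 (0.57) and SNHG1 (0.46) on the higher side. Mitochondrial ribosomal proteins split into 37 higher and 22 lower of 81, and aminoacyl-tRNA synthetases into 21 higher and 9 lower of 41. Of the 81, 59 were well expressed, and their shares (45.7% and 27.2%) lay near those of all well expressed genes. Of the 41 synthetase genes, 30 were well expressed, and the shares were 51.2% and 22.0%.

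Metabolic genes were lower in several pathways. In serine, proline and one-carbon metabolism, 20 of 36 members were lower and 10 higher (median -0.24). PYCR3, which makes proline in the cytosol, had 10.7, 10.5 and 9.65 CPM with onametostat, against 32.5, 34.4 and 35.5 CPM with DMSO (log2 fold change -1.73, standard error 0.065, adjusted p = 5.12e-15). SFXN2, a mitochondrial transporter, had 1.501, 1.33 and 1.26 CPM with onametostat, against 8.31, 8.68 and 7.98 CPM with DMSO (log2 fold change -2.62, standard error 0.135, adjusted p = 4.98e-13). The serine synthesis genes PSAT1 (-0.67) and PHGDH (-0.27) fell by less, and SHMT2 was slightly higher (0.11, adjusted p = 0.0572 with library sizes alone). Of 20 genes of the pentose phosphate pathway and NADPH supply, 12 were lower and 3 higher. H6PD, the dehydrogenase of the endoplasmic reticulum, had 10.7, 12.2 and 10.4 CPM with onametostat, against 32.1, 31.4 and 31.3 CPM with DMSO (log2 fold change -1.48, standard error 0.067, adjusted p = 7.47e-14). TALDO1 (-0.82) fell by less than 2-fold, and TKT was higher (0.34). Glycolysis was balanced, with 7 higher and 7 lower of 25, from PFKL (-0.91), a phosphofructokinase, to HK2 (0.54), a hexokinase, among those with the smallest p.

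Mitochondrial carriers of the SLC25 family had 19 of 43 members lower and 12 higher. SLC25A10, the dicarboxylate carrier, had 3.61, 4.12 and 4.01 CPM with onametostat, against 15.6, 14.9 and 14.6 CPM with DMSO (log2 fold change -1.92, standard error 0.093, adjusted p = 2.09e-13), and UCP2, an uncoupling protein, was lower too (-1.53). Respiratory chain subunits encoded in the nucleus gave no clear balance, with 29 higher and 18 lower of 80, and 20 higher and 25 lower with library sizes alone. Of 13 mRNAs encoded in the mitochondrion, only MT-ND3 was called (0.29), and its call was lost in the robust fit (adjusted p = 0.0847), with a log2 fold change of 0.19 without DMSO library 1. Without onametostat library 2, 7 of these mRNAs were higher, without DMSO library 3, 6 were higher, and without DMSO library 1, 3 were lower. In sulphur metabolism, 9 of 19 genes were lower and 5 higher (3 higher with DESeq2 or without DMSO library 3). The lower ones included PAPSS1 (-1.06), which makes the sulphate donor, and TST (-0.93), a thiosulphate sulphurtransferase.

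Genes of lysosomes, peroxisomes and GPI anchors were more often lower than higher. Of 66 lysosomal genes, 33 were lower and 10 higher, and 6 were lower DEGs. ACP2, lysosomal acid phosphatase, had 8.17, 7.70 and 7.60 CPM with onametostat, against 28.3, 30.5 and 28.9 CPM with DMSO (log2 fold change -1.91, standard error 0.069, adjusted p = 3.12e-15), and the hydrolase genes GAA (-1.05) and ARSA (-1.51) were lower, whereas CTSL, cathepsin L, was higher (0.47) and the membrane protein gene LAMP1 was not called (0.04, adjusted p = 0.305). Peroxisomal genes had 26 of 43 members lower (60.5%) and 6 higher. CAT, the peroxide-degrading catalase, had 13.3, 13.2 and 12.5 CPM with onametostat, against 44.3, 40.9 and 42.1 CPM with DMSO, so that every DMSO library was more than 3 times as high as any onametostat library (log2 fold change -1.70, standard error 0.059, adjusted p = 1.85e-15). HSD17B4 of peroxisomal fatty acid breakdown (-0.52) and the biogenesis gene PEX26 (-0.60) were also lower. In the synthesis of GPI anchors, which tether proteins to the outer membrane, 15 of 31 genes were lower and 6 higher. PIGQ (-1.79) and GPAA1 (-0.90) were among the lower ones. Cholesterol and fatty acid synthesis had 19 of 40 lower and 7 higher, with MVD (-1.26), FADS1 (-0.79) and FASN (-0.41) among the lower ones. Of 43 antioxidant genes, 20 were lower and 10 higher. The aldo-keto reductase AKR1A1 averaged 23.6 ± 1.21 CPM with onametostat and 60.3 ± 3.44 CPM with DMSO (log2 fold change -1.36, standard error 0.055, adjusted p = 1.33e-14), and its relatives AKR1B1 (0.60) and AKR1C3 (0.52) were higher. GPX4, which detoxifies lipid peroxides, was lower (-0.43). Its log2 fold change was -0.43 and not called (adjusted p = 0.623) with all 12 libraries in the fit, and it was called once that shallow library was left out.

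Inflammatory genes were mostly higher and interferon genes mostly lower. Of 37 genes of NF-kappaB signalling and cytokines, 23 were higher (62.2%) and 5 lower (3 without onametostat library 3, DMSO library 1 or DMSO library 2). ICAM1 (ENSG00000090339, chr19:10271093-10286615), an adhesion molecule for leukocytes, had 3.28, 3.77 and 3.26 CPM with onametostat, against 0.656, 0.526 and 0.307 CPM with DMSO (log2 fold change 2.79, standard error 0.22, adjusted p = 4.38e-10). CXCL8, the neutrophil chemokine interleukin-8, had 15.4, 16.3 and 13.9 CPM with onametostat, against 3.63, 3.92 and 5.22 CPM with DMSO (log2 fold change 1.86, standard error 0.11, adjusted p = 4.39e-12). LIF, a cytokine of the interleukin-6 family, averaged 85.5 ± 6.04 CPM with onametostat and 44.5 ± 2.20 CPM with DMSO (log2 fold change 0.93, standard error 0.051, adjusted p = 1.35e-12). IRAK2 was higher (1.06) and its relative IRAK1 lower (-0.89), both kinases of the interleukin-1 receptor pathway, and CCL2 was higher (0.89). In the interferon response and nucleic acid sensing, 31 of 54 genes were lower (57.4%) and 11 higher (median -0.23). PSMB8, a subunit of the immunoproteasome, had 48.1, 45.3 and 45.6 CPM with onametostat, against 98.4, 95.5 and 97.7 CPM with DMSO (log2 fold change -1.07, standard error 0.04, adjusted p = 4.07e-15). HLA-B (-0.59) and HLA-C (-0.48), class I molecules that present peptides, were lower, with the caution that reads of these variable and related genes are hard to assign. The adaptor MAVS (-0.70) was lower, and IFI16 (0.57) and SP100 (0.51) higher.

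**Figure D5:**
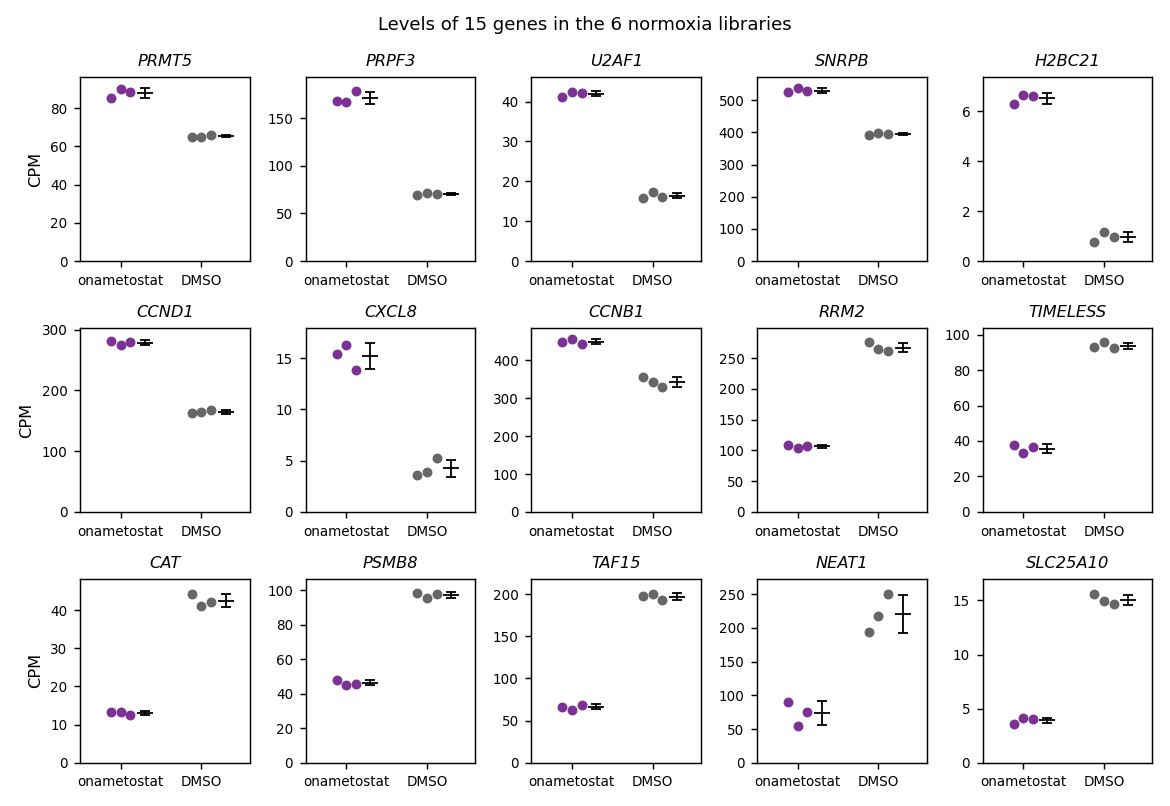
CPM (vertical axes, each from 0) of 15 genes in the 3 onametostat libraries and the 3 DMSO libraries of normoxia, 1 point per library, with the mean and SD as a bar beside the points. The 15 genes were picked from the called genes described in the text, so the separation of their groups is no further result.

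Genes of the cell surface and of signalling showed no common direction. Of 85 matrix genes and integrins, 26 were higher and 32 lower. LAMB3, a laminin chain, averaged 149 ± 2.59 CPM with onametostat and 70.7 ± 0.714 CPM with DMSO (log2 fold change 1.07, standard error 0.035, adjusted p = 6.29e-16), and FN1, fibronectin, 574 ± 15.2 CPM with onametostat and 349 ± 10.4 CPM with DMSO (log2 fold change 0.72, standard error 0.035, adjusted p = 2.52e-13). The integrin genes ITGA2 (1.11) and ITGA5 (0.83) were higher, and ITGA3 (-0.82) and ITGA8 (-1.43) lower. In the MAP kinase cascade, 28 of 67 members were higher and 17 lower. The phosphatase DUSP4, a feedback inhibitor, averaged 76.6 ± 2.63 CPM with onametostat and 36.1 ± 1.73 CPM with DMSO (log2 fold change 1.09, standard error 0.046, adjusted p = 2.63e-14), and MAP3K9 (1.02) was higher. MAP2K2 was lower (-0.38). In the fit of all 12 libraries its log2 fold change was -0.38 and not called (adjusted p = 0.559), and without the shallow one it was called. In the Wnt pathway, 17 were higher and 21 lower of 53, with DVL2 (-1.09), a relay of the receptor, among the lower ones. The receptor FZD2 was lower (-0.23), with -0.24 and no call (adjusted p = 0.789) over all 12 libraries and a call without the shallow one. Axon guidance genes split into 16 higher and 15 lower of 54, with SEMA5A (-1.09) and SEMA6A (-1.20) lower and NRP2 (0.66) higher. Of 15 apoptosis regulators of the BCL2 family, 8 were lower and 2 higher, and BMF, a promoter of apoptosis, was a lower DEG (-1.36). PTK2B, the focal adhesion kinase relative PYK2, had 0.389, 0.739 and 0.746 CPM with onametostat, against 3.59, 3.51 and 3.03 CPM with DMSO (log2 fold change -2.36, standard error 0.21, adjusted p = 2.95e-09).

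Lists with smaller or mixed changes are given by their counts. Of 19 factors of nonsense-mediated decay and translation termination, 9 were higher, such as GSPT1 (0.33), and 7 lower, such as SMG6 (-0.50). Of 63 lysine methyltransferase, Polycomb and DNA methyltransferase genes, 30 were higher, such as KMT2B (0.68), and 18 lower, such as SUV39H2 (-0.84). Of the 63, 41 were well expressed, and the shares (47.6% and 28.6%) lay near those of all well expressed genes (43.8% and 29.3%). Stress response genes of the endoplasmic reticulum and of the integrated stress response had 16 of 42 higher and 12 lower, with EDEM1 (0.67), which feeds misfolded proteins to degradation, and the chaperone gene HYOU1 (-0.44) on either side. The receptor tyrosine kinases MET (0.42) and FGFR1 (-0.39) were called in opposite directions, and their list of 22 held 6 higher and 7 lower genes. RAB GTPases, which steer vesicles, had 19 higher and 18 lower of 55, palmitoyltransferases 7 and 10 of 20, and autophagy genes 13 and 13 of 41. Among immediate early and MYC-related factors, 9 of 23 were higher, such as FOSL1 (0.59), and 8 lower, such as JUND (-0.46). Of 15 telomere genes, 5 were higher and 6 lower (3 without DMSO library 3). TINF2 of the shelterin complex was a lower DEG (-1.03) and WRAP53, which guides telomerase RNA, was higher (0.63). Of 18 genes used to describe glioma cell states, 8 were higher, such as RUNX1 (0.64), and 7 lower, such as SOX4 (-0.73).

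Fewer noncoding transcripts than genes in all were higher, and a like share was lower. Genes annotated as lncRNA took 0.620 ± 0.0254% with onametostat and 0.728 ± 0.0122% with DMSO as a share of counts (exact permutation p = 0.10). Of 1802 such genes, 262 were higher (14.5%, against 29.5% of all genes) and 560 lower (31.1%, against 31.0%). Of 415 transcripts named as antisense, 161 were lower and 44 higher (29 higher with DESeq2), and 58 were lower DEGs. OIP5-AS1 averaged 47.9 ± 1.27 CPM with onametostat and 91.0 ± 2.58 CPM with DMSO (log2 fold change -0.92, standard error 0.041, adjusted p = 4.87e-14), and UCKL1-AS1 went the other way (2.32). Counting by default settings did not use strand, so reads of an antisense transcript and its partner gene cannot be told apart where they overlap. Of 183 intergenic LINC transcripts, 68 were lower and 26 higher, and LINC02593 had 2.17, 1.76 and 1.96 CPM with onametostat, against 16.2, 16.5 and 22.4 CPM with DMSO, the largest decrease of the genes whose log2 CPM averaged 1 or more (log2 fold change -3.25, standard error 0.141, adjusted p = 4.06e-14). NEAT1, the RNA scaffold of paraspeckles, was chosen after its values were seen, with 89.96, 54.7 and 75.3 CPM with onametostat, against 195, 218 and 250.02 CPM with DMSO (log2 fold change -1.63, standard error 0.105, adjusted p = 1.67e-11). The lncRNA genes were mostly low, with a median average log2 CPM of 0.320 against 4.40 for all genes, and the shares called vary with the level. Compared at a like level, lncRNA genes with an average log2 CPM from 3 to 5 were higher in 20.0% and lower in 50% of 130, and protein-coding genes in 26.7% and 38.5% of 3332. From 1 to 3, lncRNA genes were higher in 17.8% and lower in 42.0% of 445, and protein-coding genes in 16.3% and 36.9% of 1561. A smaller share of higher lncRNA genes was thus not seen from 1 to 3. Zinc finger genes of the ZNF series, many of them repressors, had 154 lower (34.1%) and 86 higher (19.0%) of 452, with ZNF202 as a higher DEG (1.37). Only 58 of the 452 were well expressed, and these shares lay near those of all genes with an average log2 CPM from 1 to 3 (36.4% lower and 16.7% higher).

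Beyond these lists, the lower genes with the largest fold changes included IPO5P1 (-2.93), a pseudogene of IPO5 with which it may share reads, ARNT2-DT (-2.88), the dehydrogenase gene CRYL1 (-2.69), the vesicle GTPase gene RAB26 (-2.46), WDR31 (-2.44) and CHKB-DT (-2.31). Among the higher ones were genes known here by ID only, ENSG00000290032 (2.40), ENSG00000235609 (1.79), ENSG00000280407 (1.76) and ENSG00000264112 (1.66). Well expressed DEGs formed a small set. DBNL (ENSG00000136279, chr7:44044640-44069456), an actin-binding adaptor, had 51.7, 49.5 and 50.5 CPM with onametostat, against 161, 168 and 163 CPM with DMSO, the smallest p among the lower ones (log2 fold change -1.70, standard error 0.037, adjusted p = 1.29e-18). NPTX1, a secreted neuronal pentraxin (-1.19), the import receptor gene IPO9 (-1.08), SUMF2 (-1.17), C5orf15 (-1.25) and DOCK1 (-1.34) were lower as well. Of the higher ones, ZDHHC6, a palmitoyltransferase, averaged 89.7 ± 2.17 CPM with onametostat and 41.2 ± 0.922 CPM with DMSO (log2 fold change 1.12, standard error 0.041, adjusted p = 3.12e-15), and G0S2, an inhibitor of the lipase of fat droplets (1.09), the histone deubiquitinase gene MYSM1 (1.08) and USPL1 (1.03) were also above 2-fold.

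Of the genes whose log2 CPM averaged 7 or more, 888 of 1771 were higher and 400 lower, and nearly all by less than 2-fold. AVL9 averaged 175 ± 2.497 CPM with onametostat and 91.3 ± 3.75 CPM with DMSO (log2 fold change 0.94, standard error 0.036, adjusted p = 7.00e-15) and BCLAF1 309.6 ± 3.22 CPM with onametostat and 199.97 ± 2.14 CPM with DMSO (log2 fold change 0.63, standard error 0.032, adjusted p = 3.32e-13). TTYH3 (-0.83), PEG10 (-0.91), MAGED1 (-0.76), UBE2Z (-0.81), HMGXB3 (0.72) and RPN2 (-0.87), a subunit of the oligosaccharyltransferase, were among those with the smallest p at these levels, beside the ones named with their lists. Of other genes, EBF4 was lower (-2.12), PLEKHS1 (1.49) and AMH (1.04) were higher, and TERT (0.17, adjusted p = 0.403) and MAST1 (-0.19, adjusted p = 0.513) were not called.

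The hypoxic libraries, which share no sample with these 6, allow the same genes to be looked at again. Their labels carry the same experiment numbers, so they are other arms of the same experiments and not an independent repeat. Library 3 of onametostat in hypoxia holds only 403279 counts and was left out, so the values are those of 2 onametostat and 3 DMSO libraries and carry no test. In hypoxia both onametostat libraries were above all 3 DMSO libraries for 212 of the 258 higher DEGs of normoxia (82.2%), against 33.2% of all genes, and below them for 591 of the 645 lower DEGs (91.6%), against 34.8% of all genes. The opposite separation was found for 1 of the higher and 0 of the lower DEGs. In hypoxia H2BC21 had 5.43 and 5.09 CPM with onametostat, against 1.28, 1.48 and 1.42 CPM with DMSO. PRPF3 had 162 and 177 CPM with onametostat, against 67.6, 71.0 and 69.6 CPM with DMSO. RRM2 had 106 and 107 CPM with onametostat, against 228, 229.9 and 223 CPM with DMSO, and CAT had 15.3 and 12.7 CPM with onametostat, against 39.6, 43.8 and 44.3 CPM with DMSO. In these 4 genes the order of the treatments in hypoxia was that of normoxia.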

How the data were processed

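RNA of T98-G cells was sequenced in 3 independent experiments per condition. Libraries of polyadenylated RNA came from a stranded kit. The deposited table holds the authors' whole-number read counts per gene, made with STAR and featureCounts after their filter on low counts; although its name speaks of normalised values, library totals differ and were taken as raw counts. In the notes of the submitters the aligner was STAR 2.7.10a on GRCh37, whereas the methods of the study name GRCh38, so the build of the counts is unsettled, and coordinates here are looked up by gene ID in GENCODE 44 (GRCh38). The kit keeps strand, but featureCounts ran with default settings, which do not use it.

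Counts of the 6 normoxia libraries were tested with edgeR 4.0.16 in R 4.3.3 (TMM factors, quasi-likelihood F test, Benjamini-Hochberg adjustment over 14698 genes, adjusted p under 0.05). DEGs also had an absolute log2 fold change above 1. Groups and directions follow the labels. Log2 fold changes are onametostat over DMSO. The p-values measure the spread between the 3 experiments of each condition. The steps were also run on simulated counts with known changes. Far fewer genes changed there than here and the simulated libraries spread more, so the error rate in these data was not tested. Gene lists, members and rules were chosen with earlier results of these data known. Named genes were up to 10 DEGs per direction with the largest change (average log2 CPM of at least 1, no overlap between groups), up to 12 DEGs per direction with the smallest p (at least 5), up to 10 called genes per direction under 2-fold with the smallest p (at least 7), up to 5 called members with the smallest p and up to 3 defining members of each list, and genes the study names. Other members of a list, and NEAT1, were chosen after their values were seen. For genes named by their change or their p, a wide separation of the groups is no further result. There were 16 alternatives, with DESeq2 1.42.0 and limma 3.58.1 among the tools. Promoter sequences are those of RefSeq, matched by symbol for 10653 genes. Results of some genes are not reported here.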

Additional observations from a re-analysis of the deposited data

How the results depend on the processing

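The counts of called genes, of DEGs and of well expressed genes changed by less than 2-fold stayed within 1.5 times their main values under all 16 alternatives. Over the fits that left out 1 library, 3847 to 4330 genes were higher and 4034 to 4350 lower, 244 to 335 DEGs were higher (335 without onametostat library 2) and 630 to 677 lower, and 2462 to 2639 well expressed genes were higher and 1597 to 1715 lower by less than 2-fold. DESeq2 called 3972 higher and 3863 lower, library sizes alone 3854 and 4993, and all 12 libraries in 1 fit 3991 and 4311. With the experiment number as a replicate block, 4329 genes were higher and 4532 lower, and of the genes and lists described the block moved the call of PRMT7 (adjusted p = 0.0588) and the count of higher mitochondrially encoded mRNAs (5). Deviations of libraries with the same number correlated by -0.15, -0.01 and 0.07. The labels pair the libraries by experiment, and so few correlations cannot decide against that pairing. The main fit left the pairing out, and the fit with the block is given beside it. No named gene reversed. Among further calls that changed, OLIG2 was lost without onametostat library 2 (adjusted p = 0.0591) and VIM passed with DESeq2 (adjusted p = 0.0235) and limma voom (adjusted p = 0.0312). PRMT1 passed with library sizes alone (adjusted p = 0.0158) and limma voom (adjusted p = 0.0488), and PRMT6 was lost with DESeq2 (adjusted p = 0.0594). The cause was not tested. Of the genes, 2953 had an average log2 CPM under 1.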
